A study of Homo sapiens with 9 samples.

Results

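A small set of p65 binding sites in 786-O renal carcinoma cells was called in control, vehicle and XMU-MP-1 treated cells but not in the library labelled siTEAD4. These sites were chosen from the peak lists themselves: control p65 peaks on chromosomes 1 to 22 and X that shared at least 1 bp with a vehicle peak and with an XMU-MP-1 peak, and with no peak of the list labelled siTEAD4. There were 371 such sites among 15465 control p65 peaks, or among the 12268 control peaks on these chromosomes that had a vehicle peak. Of the 12268, 1542 (12.6%) had an XMU-MP-1 peak and 1718 (14.0%) a siTEAD4-labelled one, and 3.02% met the whole rule. For comparison, 547 of the 12268 sites were found only in the list labelled siTEAD4, 1171 in both treated lists and 10179 in neither.

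The study used chromatin immunoprecipitation sequencing (ChIP-seq), which finds the DNA fragments bound by a protein, in 786-O, an established clear cell renal carcinoma line that lacks functional VHL. Its p65 libraries came from control cells with no treatment label, from cells with an siRNA (siTEAD4 in the title, siTEAD in the treatment label), from vehicle cells, and from cells given XMU-MP-1, which inhibits MST1 and MST2, the kinases at the head of the Hippo pathway. The TEAD list used here came from XMU-MP-1 treated cells, so TEAD binding in the other conditions is not analysed here, and the antibody's TEAD family member is not given in the sources used here. Doses, treatment times and the siRNA sequence are not given there either. The peak identifiers in the list labelled siTEAD4 carry another condition name, p65_Vert, so its treatment rests on the sample label. Peak lists hold no expression values, so the cell type was not checked against markers. The samples used here also include 4 input libraries, 1 for each of the control, siTEAD4-labelled, vehicle and XMU-MP-1 conditions. Each condition has 1 p65 library, and the TEAD list rests on 1 library. Nothing below could therefore be checked across replicates, and p-values are left out.

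p65, the product of RELA, is the main activating subunit of NF-κB. It is held in the cytoplasm by IκB proteins and enters the nucleus when these are degraded, where it binds κB sites in promoters and enhancers of inflammatory and survival genes. TEAD proteins sit on DNA and recruit the coactivators YAP and TAZ, which the Hippo kinases keep out of the nucleus. Blocking MST1 and MST2 therefore frees YAP, whereas an siRNA against a TEAD protein lowers a protein that anchors YAP to DNA. How far TEAD binding fell in the cells labelled siTEAD4 is not shown by the lists used here.

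The 4 p65 lists held 15465 (control), 17958 (vehicle), 1813 (labelled siTEAD4) and 1649 (XMU-MP-1) peaks, and the TEAD list 23460. Each peak has the authors' fold enrichment over the local background that the peak caller used for its list. A fold therefore ranks a site within its list and shows no change between lists. Which input library, if any, set that background is not given in the sources used here. The lists give no read totals. The number of fragments stacked at each summit was recovered from the deposited fold and p-value. Its median was 34 (control list), 18 (vehicle), 28 (labelled siTEAD4), 33 (XMU-MP-1) and 18 (TEAD). A scale smaller by a factor of 2 fits the same values with whole numbers in any list, the XMU-MP-1 and control lists included. The larger scale was used. With the smaller one every fragment number of the list would be 2 times as high. The lowest −log10 q was between 1.302 and 1.553 in every list.

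Most sites kept only with XMU-MP-1 carried TEAD. A TEAD peak overlapped 295 of the 371 (79.5%, 95% Wilson interval 75.1 to 83.3), against 49.1% of the other 11897 control-and-vehicle sites. TEAD was not part of the rule that chose the sites. The share was 64.4% (60.3 to 68.3) at the 547 sites held only by the siTEAD4-labelled list, 77.0% (74.5 to 79.3) at the 1171 sites kept in both, and 45.1% (44.1 to 46.0) at the sites kept in neither. The difference was 15.2 percentage points (95% Newcombe interval 9.28 to 20.8) from the sites held only by the siTEAD4-labelled list, and 34.5 points (29.96 to 38.4) from those kept in neither. From the sites kept in both it was 2.49 points (-2.49 to 7.03), an interval that includes 0. All these intervals express counting error alone and take each site as independent of its neighbours. The TEAD library and the XMU-MP-1 p65 library came from cells under the same treatment, and TEAD occupancy cannot be told apart from that shared condition here.

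The shares were also read within 3 classes that divide the 371 sites evenly by control fold. TEAD was most frequent in the lowest class among the 371 and among the sites kept in neither list. At the sites kept in both and those held only by the siTEAD4-labelled list, it was most frequent in the middle class. In the lowest class, up to a control fold of 6.52, 109 of 124 sites (87.9%) had TEAD, against 76.3% of the sites held only by the siTEAD4-labelled list. In the middle class, up to 10.1, the shares were 80.6% and 77.3%, a difference of 3.37 points with an interval (-6.44 to 12.8) that includes 0. In the highest class they were 69.9% and 53.7%, 16.2 points apart (5.94 to 25.5). Sites kept in neither list had TEAD at 50.01%, 41.8% and 30.3% in the same classes. The gap to the sites kept in neither was thus 37.9, 38.8 and 39.6 points, of like size at each strength. From the sites kept in both, the 371 differed by 3.79 points (-5.18 to 13.1), -6.52 points (-15.2 to 1.27) and -3.47 points (-12.5 to 4.55), with 0 inside each interval. The gap to the sites held only by the siTEAD4-labelled list was clear of 0 in the lowest and highest classes alone. With classes by vehicle fold, added after seeing the data, the gap to the siTEAD4-labelled list was 12.01 points (3.33 to 21.1), 9.87 points (-0.962 to 20.2) and 11.7 points (1.495 to 21.2).

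**Figure D1:**
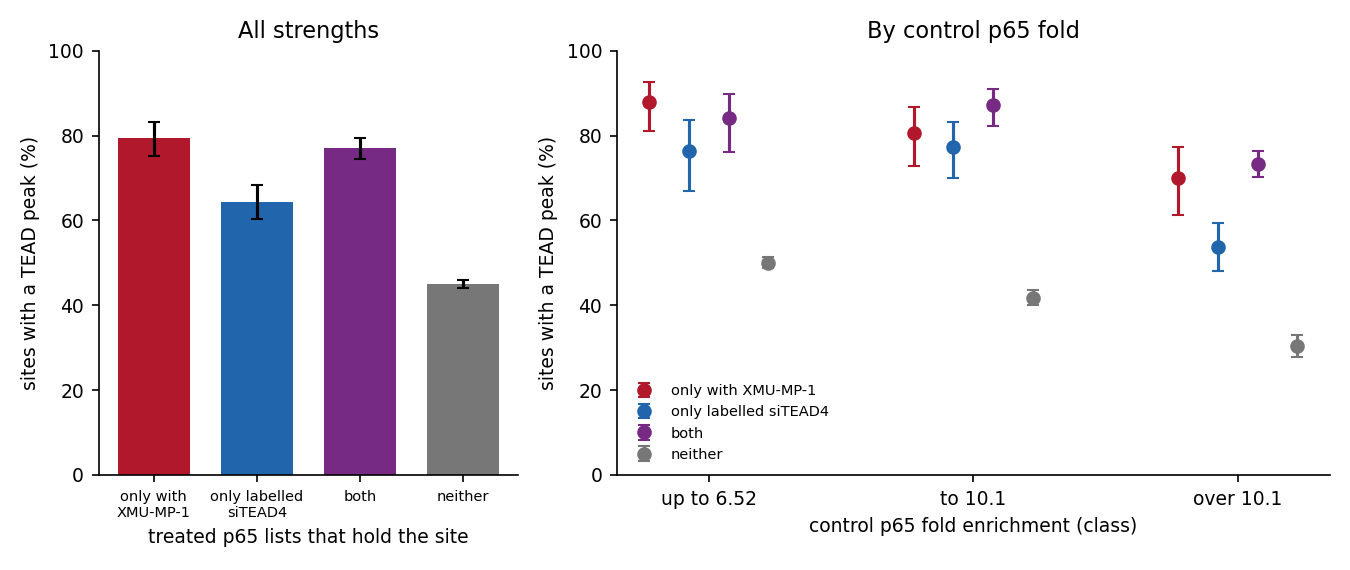
Share of p65 sites with a TEAD peak (y axis, percent) for sites found only in the XMU-MP-1 list, only in the list labelled siTEAD4, in both and in neither; left, all sites as bars, right, the same by control p65 fold class as points; error bars are 95% Wilson intervals. Sites kept only with XMU-MP-1 stand at 79.5% and those kept in neither at 45.1%.

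TEAD at these sites was also strong. The 295 TEAD peaks had a median fold of 10.3 (quartiles 6.85 and 16.3, range 3.40 to 54.7), which is the 79.5th percentile of the TEAD list by median. At the sites held only by the siTEAD4-labelled list the median TEAD fold was 8.37, and at the sites kept in both it was 9.99. A TEAD peak in the top 10% of the TEAD list by fold lay at 87 of the 371 sites (23.5%, 19.4 to 28.0), against 11.5% (9.11 to 14.5) of the sites held only by the siTEAD4-labelled list, 22.03% of those kept in both and 6.14% of those kept in neither. The difference from the sites held only by the siTEAD4-labelled list was 11.9 points (6.94 to 17.1). This measure, the TEAD fold classes and the counts within 10 kb below were chosen after the values had been seen.

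The 918 sites held by exactly 1 treated list were then read by TEAD fold. Of these, 371 (40.4%) were kept with XMU-MP-1 and the others in the list labelled siTEAD4. The share kept with XMU-MP-1 was 28.0% (23.03 to 33.7) of 271 sites without TEAD, 34.4% (25.4 to 44.7) of 90 sites with a TEAD fold up to 5, and 37.3% (30.4 to 44.9) of 166 sites with one up to 8. It was 47.2% (39.9 to 54.5) of 176 sites up to 12, 51.1% (42.9 to 59.2) of 141 sites up to 20, and 63.5% (52.1 to 73.6) of 74 sites above 20. Neighbouring classes had overlapping intervals, but the strongest class lay 35.5 points (22.8 to 46.7) above the sites without TEAD. The median control p65 fold also differed along this series, from 11.9 without TEAD to 6.70 in the strongest TEAD class. Within the 3 classes of control fold, the share was 63.4%, 50.3% and 38.9% at a TEAD fold over 8. At a TEAD fold of 8 or less it was 49.0%, 35.7% and 32.1%, with overlapping intervals in each class. The part of p65 strength in the series was not tested. In the lowest class of control fold, the share at sites with TEAD exceeded that at sites without by 20.1 points (2.70 to 35.6). The difference was 4.98 points (-9.29 to 18.3) in the middle class and 13.8 points (5.06 to 22.05) in the highest. The middle class thus showed no difference beyond its interval. These differences rest on the same counts of the 918 sites as the TEAD shares compared above by control fold, read the other way round. They are therefore not a separate result.

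**Figure D2:**
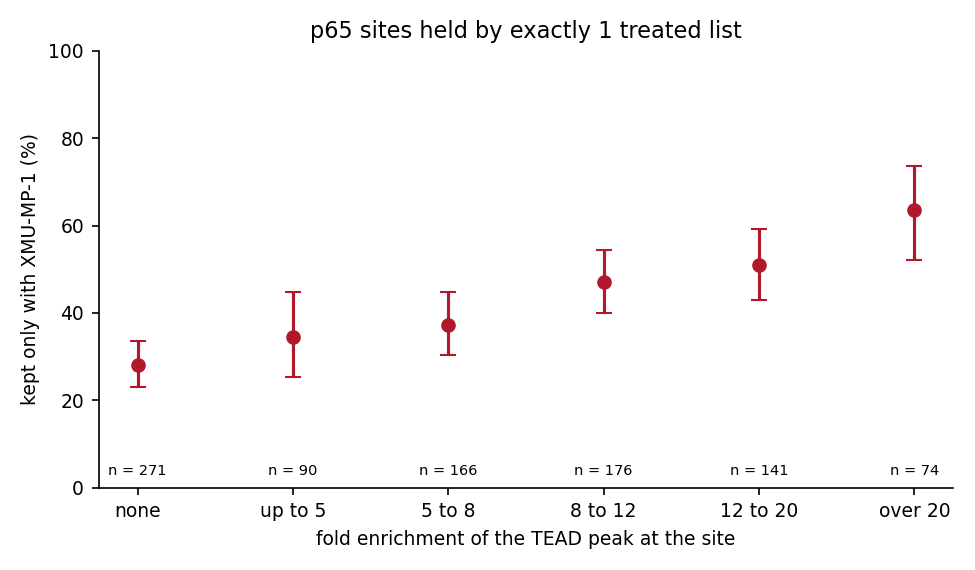
Share kept with XMU-MP-1 (y axis, percent) among p65 sites held by exactly 1 of the treated lists, by the fold of the TEAD peak at the site (x axis, classes); points are shares, error bars 95% Wilson intervals. The share is 28.0% without TEAD and 63.5% above a TEAD fold of 20.

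Over all 12268 control-and-vehicle sites, 3.02% were kept only with XMU-MP-1. This share was 1.24% (0.991 to 1.55) of 6133 sites without TEAD and 9.25% (7.03 to 12.1) of 508 sites with a TEAD fold above 20. The share held only by the siTEAD4-labelled list was 3.18% (2.77 to 3.65) without TEAD and 5.31% (3.68 to 7.62) above a TEAD fold of 20, with its highest value between them, 7.07% (5.81 to 8.59) at a TEAD fold of 8 to 12. In this strongest TEAD class 29.5% of sites were kept in both lists and 55.9% in neither.

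As p65 sites the 371 were of middling to high strength. Their control fold had a median of 8.05 (quartiles 5.83 and 11.5, range 2.08 to 28.5) and their vehicle fold one of 8.95 (6.34 and 11.97, range 2.96 to 29.5). Their median rank among the 12268 sites was the 67.0th percentile in the control and the 69.4th in the vehicle list. The sites held only by the siTEAD4-labelled list stood at 81.5 and 80.7, and those kept in both at 90.4 and 91.1. Within the 371, 175 sites (47.2%, 42.1 to 52.3) ranked higher in the vehicle than in the control list. The share was 49.5% at the sites held only by the siTEAD4-labelled list, 52.7% at those kept in both and 48.4% at those kept in neither. Both lists were part of the rule, so these shares are a description. Folds in these lists correlated at a Spearman rho of 0.625 over the 371 sites, which share both libraries.

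In the XMU-MP-1 list the 371 sites were among the weaker peaks. Their XMU-MP-1 fold had a median of 5.14 (4.56 and 5.83, range 2.87 to 11.0) and rested on a median of 26 fragments at the summit. The median percentile in that list was 30.5, and 291 sites (78.4%, 74.0 to 82.3) lay below its median. Only 1 of the 371 was in its top 10%. Sites kept in both treated lists had a median XMU-MP-1 percentile of 60.6 and 38 fragments. The mirror class had a like position in its own list: sites held only by the siTEAD4-labelled list had a median percentile there of 34.5 and 22 fragments. A −log10 q under 5 was found at 29.6% of the 371 in the XMU-MP-1 list, and at 29.6% of the mirror class in the list labelled siTEAD4. The presence and absence of a called peak chose these classes, so their ranks are a description.

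**Figure D3:**
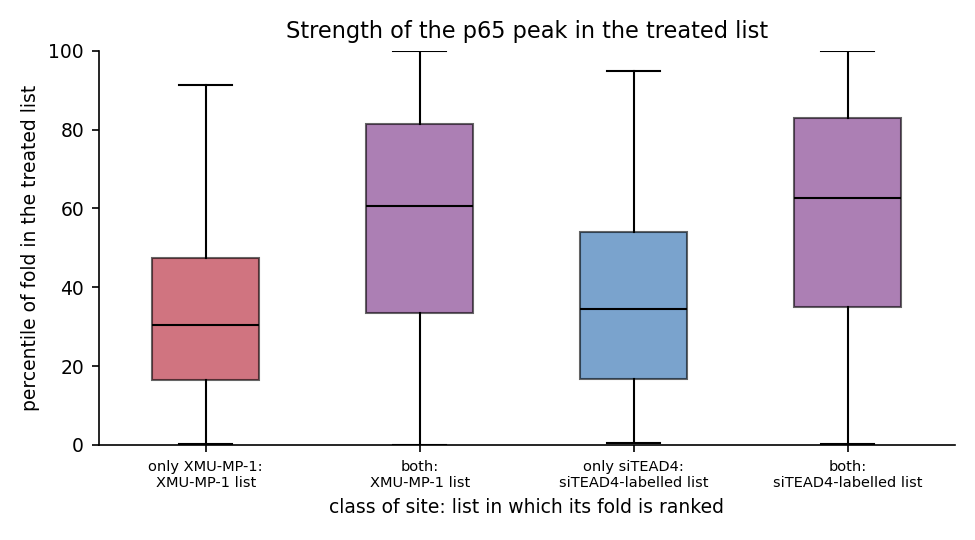
Percentile of the p65 fold within the treated list that holds it (y axis), for sites kept only with XMU-MP-1, only in the list labelled siTEAD4, and in both; boxes give quartiles, the line the median and whiskers the lowest and highest value. Sites held by 1 treated list have medians of 30.5 and 34.5, and sites in both of 60.6 and 62.6.

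The rule has a called peak in the XMU-MP-1 list and none in the list labelled siTEAD4 as its conditions. Just inside the first of these, the 3 sites with the lowest XMU-MP-1 −log10 q (1.65 to 1.67) were chromosome 6 from 138028798 to 138029270, chromosome 2 from 238136210 to 238136687 and chromosome 6 from 140300456 to 140300776, with XMU-MP-1 folds of 2.94, 3.33 and 3.33. In all, 5 of the 371 had a −log10 q under 2. Just outside the second, 10 of the 1171 sites kept in both had a siTEAD4-labelled −log10 q under 2. The one of lowest −log10 q (1.306), on chromosome 6 from 16763053 to 16763300, had a siTEAD4-labelled fold of 2.84. Its p65 fold was 6.84 in control, 5.67 in vehicle and 4.68 in XMU-MP-1 cells. The chromosome 2 site (237678607 to 237679140) did not qualify owing to a siTEAD4-labelled peak of fold 2.56, and it had a TEAD fold of 30.8.

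Distance from the nearest siTEAD4-labelled peak ran from 100 bp to 7965758 bp, with a median of 159463 bp. A siTEAD4-labelled peak lay within 1 kb of 17 sites (4.58%) and within 10 kb of 63 (17.0%). Among all 10550 sites with none overlapping, 8.73% had one within 10 kb, and among the sites kept in neither list 8.43%. A further control p65 summit within 10 kb was also more frequent at the 371, 55.3% against 38.4% of the sites kept in neither. Its part in the gap was not tested. Of the 295 sites with TEAD, 58 (19.7%) had a siTEAD4-labelled neighbour, against 10.7% of the sites with TEAD kept in neither. Of the 76 sites without TEAD, 5 (6.58%) had one, against 6.54%. The list labelled siTEAD4 was part of the rule, so these shares are a description. Whether the gap differs with TEAD was not tested. The 3 nearest lay on chromosome 19 from 45194714 to 45195206 at 100 bp, on chromosome 17 from 17054440 to 17054628 at 213 bp, and on chromosome 3 from 5036562 to 5037084 at 266 bp. All 3 had a TEAD peak, as did 79.5% of the 371, with folds of 16.4, 10.9 and 10.3.

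The site on chromosome 17 was called with fold 4.68 in control, 9.20 in vehicle and 8.66 in XMU-MP-1 cells. Its XMU-MP-1 summit lay 462 bp from the control summit and 7 bp from the TEAD summit. The XMU-MP-1 summit fell outside the control peak at 7 of the 371 sites, and at 1 site the XMU-MP-1 peak itself reached a siTEAD4-labelled peak.

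The XMU-MP-1 and control summits were 40 bp apart at the median (quartiles 18 and 79.5), and 216 of 371 pairs (58.2%, 53.1 to 63.1) were within 50 bp, against 70.3% (67.6 to 72.8) of the stronger sites kept in both. The XMU-MP-1 and vehicle summits were 42 bp apart at the median (17.5 and 83.5). At the 295 sites with TEAD, the XMU-MP-1 p65 summit was 62 bp from the TEAD summit at the median (25.5 and 120), and the control p65 summit 63 bp. Summits of XMU-MP-1 p65 and TEAD were within 50 bp at 43.7% (38.2 to 49.4). The XMU-MP-1 summit was nearer to the TEAD summit than the control summit was at 147 of the 295 sites (49.8%, 44.2 to 55.5) and as near at 2, so the summit lay nearer to TEAD about as often as farther from it. It was nearer to the control p65 summit than to TEAD at 171 (58.0%, 52.3 to 63.5).

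**Figure D4:**
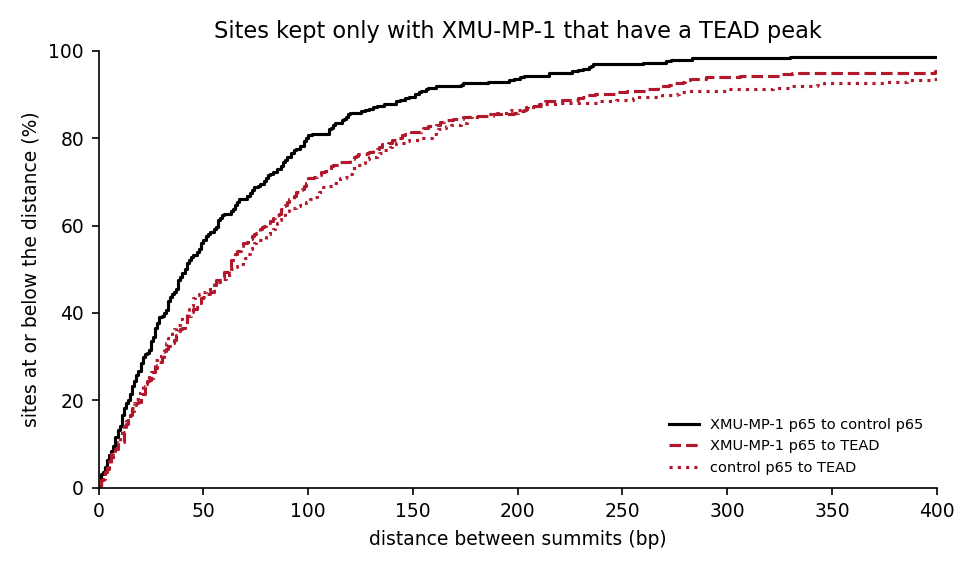
Cumulative share (y axis, percent) of the 295 sites kept only with XMU-MP-1 that have a TEAD peak, by distance between summits (x axis, bp); the solid line is XMU-MP-1 p65 to control p65, the dashed line XMU-MP-1 p65 to TEAD and the dotted line control p65 to TEAD. Both TEAD curves run together, with medians of 62 and 63 bp, and the curve between p65 lists lies above them.

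The sites with and without TEAD differed in p65 strength. The 76 without TEAD had a median control fold of 9.96, a median vehicle fold of 10.8 and a median XMU-MP-1 fold of 5.53. The 295 with TEAD had medians of 7.74, 8.34 and 5.05 in the same order. Peaks were 380 bp long at the median without TEAD and 429 bp with it. Where TEAD was absent, the nearest TEAD peak was 19858 bp away at the median and 21 bp at the least.

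Strong TEAD peaks did not go with strong p65 peaks among these sites. Over the 295 sites, the rank correlation (Spearman) of TEAD fold with XMU-MP-1 p65 fold was -0.0103, and with control p65 fold -0.251. The 902 sites with TEAD kept in both lists gave like values, 0.0575 and -0.216. Both p65 lists were part of the rule, so these correlations are a description. The 5 sites of highest TEAD fold all had control p65 folds below 5.83, the lower quartile of the 371. The chromosome 10 site (2154147 to 2154491) had a TEAD fold of 54.7 with 132 fragments at the TEAD summit. The p65 fold there was 4.66 for control, 8.36 for vehicle and 6.25 for XMU-MP-1 cells, and the nearest siTEAD4-labelled peak was 995024 bp away. The chromosome 11 site (122513203 to 122513541) had a TEAD fold of 39.7 and p65 folds of 5.22, 7.04 and 6.12 in the same order, with XMU-MP-1 p65 and TEAD summits 5 bp apart.

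Another 3 sites complete the 5 with the highest TEAD fold. Chromosome 1 from 98552302 to 98552611 had a TEAD fold of 38.3 and p65 folds of 4.19, 9.38 and 4.50. Chromosome 18 from 3649876 to 3650226 had a TEAD fold of 38.1 and p65 folds of 5.35, 4.02 and 5.05, and its p65 and TEAD summits under XMU-MP-1 were 1 bp apart. Chromosome 3 from 8911245 to 8911675 had a TEAD fold of 37.2 and p65 folds of 4.49, 8.28 and 4.37. All 5 were at or below the 29.5th percentile of control fold among the 12268 sites, and 4 of the 5 were at or above the 51.4th percentile of vehicle fold.

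**Figure D5:**
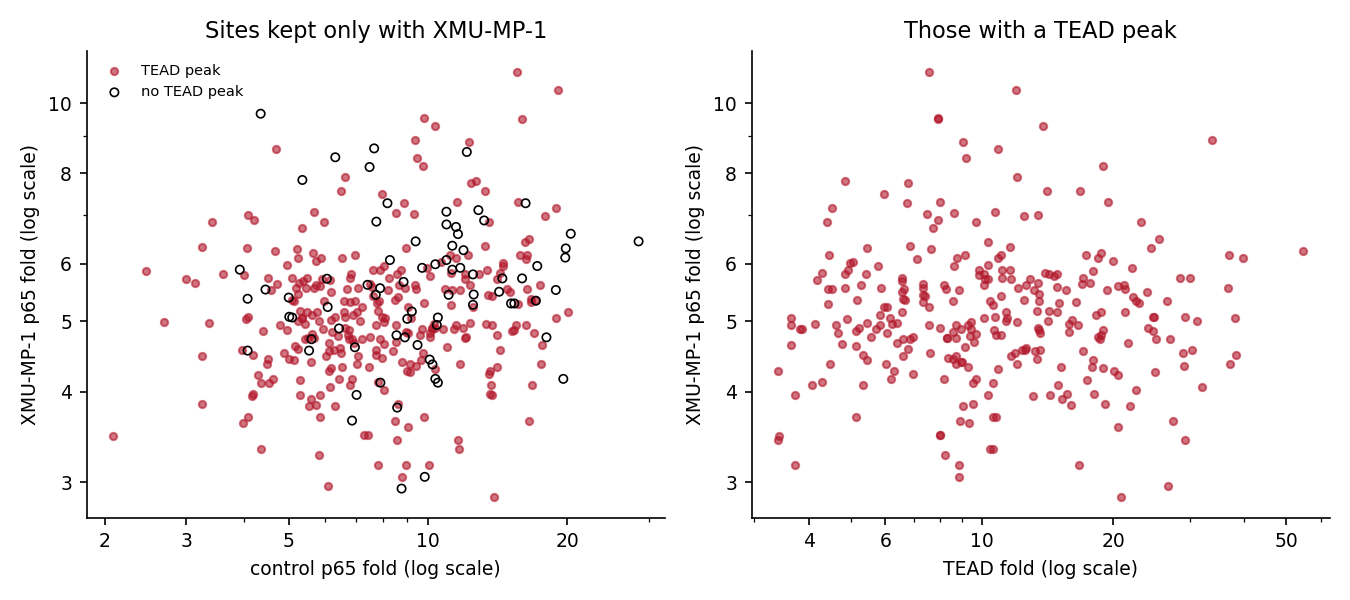
Fold enrichment at the 371 sites kept only with XMU-MP-1, on log axes; left, XMU-MP-1 p65 fold against control p65 fold with filled points for sites with and open circles for sites without a TEAD peak; right, XMU-MP-1 p65 fold against TEAD fold for the 295 with one. XMU-MP-1 folds lie between 2.87 and 11.0 and show no trend with TEAD fold (rho -0.0103).

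The 10 sites with the highest XMU-MP-1 p65 fold, 8.66 to 11.0, included 8 with TEAD, near the share of 79.5% over all 371. The first, on chromosome 7 from 3995722 to 3996069, was called with p65 fold 15.6 for control, 9.90 for vehicle and 11.0 for XMU-MP-1 cells, with 43 fragments at the XMU-MP-1 summit, and a TEAD fold of 7.54. The next, on chromosome 21 from 34775431 to 34775809, had folds of 19.1, 19.5 and 10.4 and a TEAD fold of 11.99, with all 3 of the control p65, XMU-MP-1 p65 and TEAD summits within 14 bp. It was the only 1 of the 10 above the 95th percentile in both reference lists.

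Among the others, 3 lay on chromosome 11. The one at 65648503 to 65648882 showed p65 folds of 9.78, 11.1 and 9.55 and a TEAD fold of 7.94. The one at 69089206 to 69089696 showed folds of 9.39, 6.29 and 8.91 and the highest TEAD fold of the 10, 33.7. A siTEAD4-labelled peak lay 1104 bp from it. The one at 96076309 to 96076821 showed folds of 12.3, 7.99 and 8.84 and a TEAD fold of 9.07.

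Chromosome 10 from 31389960 to 31390415 carried p65 folds of 15.97, 16.7 and 9.50 with TEAD at 7.94. Chromosome 2 from 145764586 to 145765177 carried 10.4, 9.11 and 9.29 with TEAD at 13.8, and was the most isolated of the 10, with 6391419 bp to the nearest siTEAD4-labelled peak. The remaining site with TEAD is the one on chromosome 17 described above.

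The 5 sites without TEAD that had the highest XMU-MP-1 fold ran from 8.16 to 9.67. The chromosome 19 site (18589732 to 18589952) was called with p65 fold 4.35 for control, 8.60 for vehicle and 9.67 for XMU-MP-1 cells. The chromosome 5 site (90354480 to 90354725) had folds of 7.65, 7.56 and 8.66, and the chromosome 1 site (241638831 to 241639344) had 12.1, 11.7 and 8.56. Chromosome 2 from 33141383 to 33141584 had folds of 6.30, 6.17 and 8.42, and chromosome 1 from 31324934 to 31325310 had 7.48, 14.3 and 8.16. The first and the fourth of these were 221 and 202 bp long against a median of 419 bp, with 56 and 74 fragments at the XMU-MP-1 summit against a median of 26. The local background there was 3.6 and 6.0 against a median of 3.0 over the 371 sites; its part in these folds was not tested.

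The sites with the highest control fold had modest XMU-MP-1 peaks. The chromosome 19 site (45504318 to 45504885) had 118 fragments and a fold of 28.5 in the control, 59 fragments and 22.6 in the vehicle, and 22 fragments and 6.45 in the XMU-MP-1 list. Chromosome 14 from 50810881 to 50811309 had folds of 20.4, 21.2 and 6.60. Chromosome 3 from 126630152 to 126630833, the only 1 of these 5 with TEAD (fold 14.8), had folds of 20.1, 17.5 and 5.14. Chromosome 12 from 113667442 to 113667941 had 19.9, 17.3 and 6.30, and chromosome 6 from 91107616 to 91108000 had 19.8, 11.7 and 6.12. All 5 stood above the 97th percentile of control fold and between the 30.5th and 60.3rd of the XMU-MP-1 list.

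The sites were spread over every chromosome considered. Chromosome 7 held the most, 35 of its 797 control-and-vehicle sites (4.39%, 3.17 to 6.05), of which 31 had TEAD. Chromosome 16 had the lowest share, 5 of 454 (1.10%, 0.471 to 2.55), beside 26 sites held only by the siTEAD4-labelled list. All 12 sites on chromosome 22 and all 6 on chromosome 21 had TEAD, against 79.5% of all 371. The extremes were picked from 23 chromosomes after their values were seen.

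Most sites stood alone: 317 of the 371 had no other within 100 kb, 46 had 1 and 8 had 3. The 8 formed 2 groups of 4. On chromosome 10 the group lay between 3805238 and 3894979. All 4 had TEAD, with folds of 10.6, 8.03, 11.0 and 11.7 in order of position, and XMU-MP-1 p65 folds of 4.12, 3.49, 5.41 and 5.71. On chromosome 8 the group lay between 23202730 and 23269304, with TEAD folds of 14.2, 22.6, none and 10.1 and XMU-MP-1 p65 folds of 5.81, 5.34, 5.06 and 5.06. The last pair of control peaks on chromosome 8 shared 1 XMU-MP-1 peak, the only such pair, so the 371 sites rest on 370 XMU-MP-1 peaks.

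A further control p65 summit lay within 10 kb of 205 sites (55.3%, 50.2 to 60.2), against 41.2% of all 12268 sites. The difference was 16.8 points (11.6 to 21.9) from the sites kept in neither list. From the sites held only by the siTEAD4-labelled list it was 5.71 points (-0.871 to 12.2), and from those kept in both -1.19 points (-7.01 to 4.55).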

How the data were processed

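Reads were processed by the submitters with fastp, Bowtie2 (2.4.5) and MACS2 on hg19, per the submitters' processing notes. Caller settings and the input used for each list: not given in the sources used here. The authors deposited 1 narrowPeak list for each of 5 libraries, with a fold enrichment (ratio), a −log10 p-value, a −log10 q-value, a score and a summit position per peak. The deposited score was not used.

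Coordinates are hg19, 1-based. No filter for repeats or high-signal regions was applied here. Where several peaks overlapped a site, the one of highest fold was used. Fragments at a summit were the whole number, times 1 scale per list, that gave both fold and p under a Poisson tail. The scale was 0.587 in the control, 0.783 in the XMU-MP-1 and 1 in the other lists, and between 99.96% and 100% of peaks were solved to within 0.005 in −log10 p. This recovery was added after seeing the files. Shares have 95% Wilson and differences 95% Newcombe intervals. The code (Python 3.11.15, numpy 2.4.6, pandas 2.3.3) was tested on simulated data.

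Sites named are the 10 of highest XMU-MP-1 fold, the 5 of highest TEAD fold, the 5 without TEAD of highest XMU-MP-1 fold, the 5 of highest control fold, the 3 nearest to a siTEAD4-labelled peak and those with most others within 100 kb. The weakest and just-excluded sites were added after their values were seen. Sites, lists and tests were chosen with earlier results of these data known. No hg19 genome or annotation was used here, so sites carry no gene names, motifs or sequences.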

Additional observations from a re-analysis of the deposited data

How the results depend on the processing

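Alternatives gave 37 values: 34 lay inside the reported 95% interval (for the number of sites, within 1.5 times), 3 lay outside it and 0 changed sign. The number of sites was between 261 (−log10 q of 5 or more in the XMU-MP-1 list) and 427 (list labelled siTEAD4 cut to the size of the XMU-MP-1 list, chosen after seeing the data). The share with TEAD was 68.7% with summits within 200 bp, and 61.2% when TEAD needed a −log10 q of 10 or more; both settings admit fewer TEAD peaks. The difference from sites kept in neither list was 28.2 points with summits within 200 bp; there the 371 were read at their XMU-MP-1 p65 summit and the sites kept in neither at their control summit, so the sides used summits of different lists. The difference from sites kept in both included 0 under every alternative run. Alternatives for gene positions and motifs (3 in all) were not run. The counts rest on 26 fragments per XMU-MP-1 summit at the median. No paired analysis was possible because no condition had a second p65 library to pair.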
